A study of Mus musculus with 17 samples.

Results

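The ATG8 family and the receptors that link it to autophagic cargo were examined in mouse brain arrays: Map1lc3a, Map1lc3b, Gabarap, Gabarapl1 and Gabarapl2 among the ATG8 genes, and Sqstm1, Nbr1, Tax1bp1 and Calcoco1 among the receptors. All 9 genes were represented, by 21 of the 45037 mouse probe sets on the array, every one of which carried a single member symbol in the platform annotation. A probe set is a group of short oligonucleotides read together as 1 measurement of a transcript. ATG8 proteins are small ubiquitin-like proteins that are coupled to a lipid on the growing autophagosome membrane, where the LC3 and GABARAP subfamilies recruit the machinery and the cargo. Receptors carry a short motif that docks on ATG8 proteins and a second domain that binds cargo, in most cases through ubiquitin, so that aggregates and organelles are delivered to the lysosome. Neurons do not divide and depend on this basal turnover, and in mouse muscle Map1lc3b and Gabarapl1 are known target genes of FOXO3.

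The samples were Affymetrix expression arrays of mouse brain RNA, 8 labelled FOXO 1/3/4 KO and 7 labelled WT, with a further KO and a further WT array that carry the mark CA13. KO animals lacked Foxo1, Foxo3 and Foxo4 in the nervous system through floxed alleles and a human GFAP promoter-driven Cre, which acts in progenitors shared by neurons and glia, and the mice were on a mixed FVB and B6 background. The study's methods describe laser capture of the dentate gyrus, and the labels name brain only. Neither the labels nor the methods give the age, sex or exact alleles of the animals behind these arrays, no treatment is named, and the meaning of CA13 is not explained. Each sample's mark was read as 1 animal, which the sources do not state outright, so that p-values measure the spread between these samples, part of which may be technical. In captured tissue, fewer cells of a type and less RNA per cell cannot be told apart.

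The targeted gene separated the genotypes among the unmarked arrays: the Foxo1 signal ranged from 4970 to 19074 in WT arrays and from 121 to 658 in KO arrays (log2 fold change -5.08, SE 0.30, limma adjusted p = 1.16e-07). The Foxo1 signal was 833 in the CA13-marked WT array and 293 in the CA13-marked KO array. The first was closer to the KO range than to the unmarked WT arrays, though above every KO array. It is a single array. Whether the Foxo1 level tells the genotype in arrays with its marker profile, the library labelled 433 included, was not tested. Markers of dentate granule neurons (9 genes, Prox1 and C1ql2 among them) averaged 11.11 to 11.49 on the log2 scale in WT arrays and 11.15 to 11.35 in KO arrays other than the library labelled 433. The library labelled 433 had a granule marker mean of 8.45 and a CA pyramidal marker mean of 10.78, beside 8.31 and 10.72 in the CA13-marked WT array of 437. The CA13-marked KO array of 433 had 11.38 and 8.36, both within the range of the unmarked WT arrays. The markers therefore went against the labels for the 433 arrays, and results that rest on them are given with and without the unmarked 433. Interneuron markers were at 10.19 in the library labelled 433 and 10.22 in the CA13-marked WT array, against at most 9.98 in the other unmarked arrays.

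Of the 21 member probe sets, 16 had a mean level above the median of all probe sets (6.98 on the log2 scale), and each gene had at least 1 of these. The 5 dimmer ones were Map1lc3a 1451290_at, Map1lc3b 1428024_at, Sqstm1 1444021_at, Nbr1 1451897_a_at and Tax1bp1 1442901_at. Probe sets ending in _s_at or _x_at can also bind transcripts of related sequence, which applies to Map1lc3a 1447883_x_at, Gabarapl1 1416419_s_at and Tax1bp1 1420174_s_at, and levels were not set against each other between probe sets.

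Because Gabarapl1 is a known FOXO target elsewhere, the promoter windows of the members were searched for the letters of the FOXO recognition element. RefSeq promoter windows (250 bases before to 50 after the start of the gene, GRCm38.p6) were at hand for 8 of the 9 members, and Map1lc3a had no entry. GTAAACA, on either strand, was in none of the member windows and in 3.65% of all 32851 windows. Its shorter core TAAACA, which lies within GTAAACA, was in 1 of the 10 member windows, that of Gabarapl1. It was in 13.4% of all windows, so the share among the members was not above that. The match lay 94 bases before the Gabarapl1 start, on the gene's strand. The 150 bases before that start (chr6:129533042-129533191, plus strand) are shown with TAAACA in capitals, as the single window of the members that held it.
Gabarapl1: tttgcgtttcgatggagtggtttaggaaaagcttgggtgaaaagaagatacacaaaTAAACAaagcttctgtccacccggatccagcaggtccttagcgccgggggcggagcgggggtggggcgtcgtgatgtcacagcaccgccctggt
A match to these letters is a description and no measure of binding.

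The first comparison asked whether loss of FOXO 1/3/4 changed the mRNA of these genes. No member probe set differed between KO and WT at an adjusted p under 0.05 (limma, Benjamini-Hochberg over all 45037 probe sets), where 0.0133% of all probe sets were called, and none had an unadjusted p under 0.05, where 3.22% of all did. The KO and WT arrays overlapped in all 21, and 0.0289% of all probe sets had groups that did not overlap. The median log2 fold change, KO minus WT, was -0.04 over the members and 0.00 over all probe sets, and the median size of the change was 0.08 against 0.12. The adjusted p was 1.00 for each member probe set. Without the library labelled 433 the count stayed at 0, and 1 probe set, Map1lc3b 1415930_a_at, reached an unadjusted p under 0.05, where 3.49% of all probe sets did and 0.0133% were called.

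**Figure D1:**
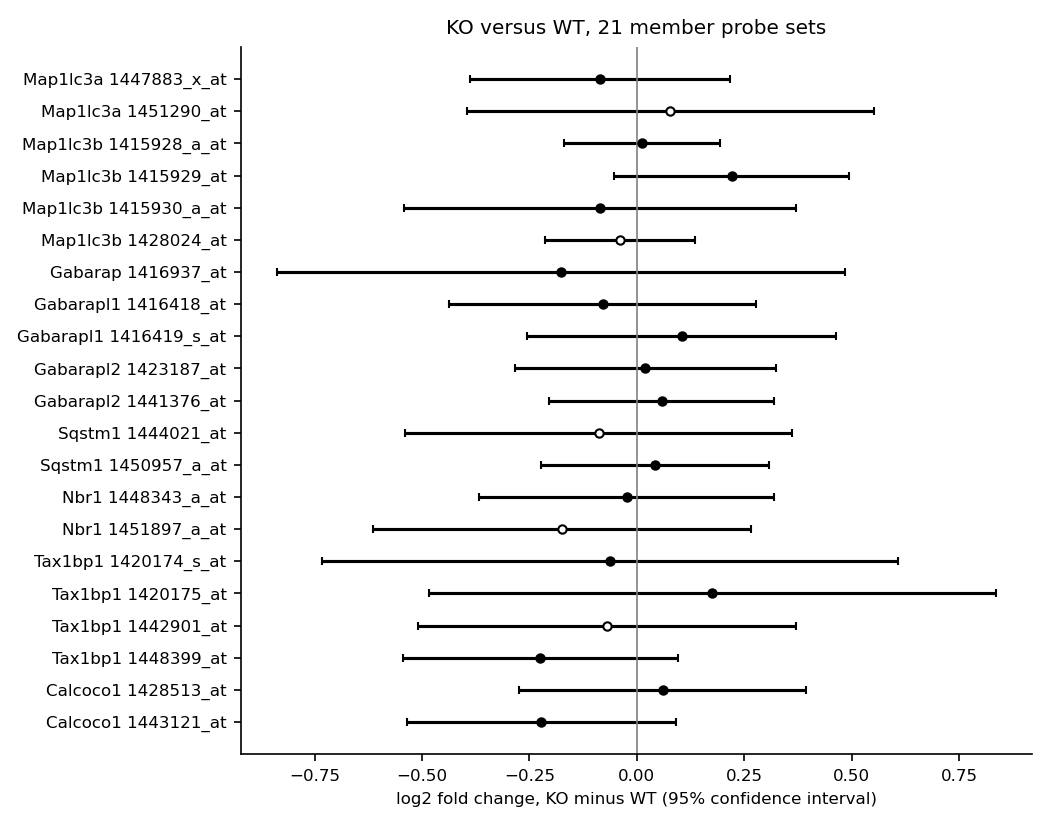
Log2 fold change, KO minus WT, of the 21 member probe sets (x axis) with its 95% confidence interval from limma over 8 KO and 7 WT arrays; open circles mark the 5 probe sets below the median level. Every interval spans 0, and those of Gabarap and of 2 Tax1bp1 probe sets are the widest.

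Map1lc3a encodes LC3A, an LC3 paralogue that is abundant in brain. Its 1447883_x_at signal ran from 18330 through a median of 21844 to 50365 in WT and from 17722 through 18927 to 36666 in KO arrays. The highest WT array was 392 and the highest KO array the library labelled 433, and the groups overlapped over most of their range. The log2 fold change was -0.09 (SE 0.14, 95% confidence interval -0.39 to 0.22), with a two-sided exact permutation p of 0.567 over the 6435 ways to divide 15 arrays into 8 and 7. It was -0.16 without the library labelled 433. The dim 1451290_at had a log2 fold change of 0.08 (SE 0.23), which turned to -0.03 without that library.

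Map1lc3b encodes LC3B, the protein most used to follow autophagosomes. The brightest of its 4 probe sets, 1415928_a_at, gave a median signal of 21289 in WT arrays (17633 to 27966) and of 21056 in KO arrays (15640 to 27541). These groups were nearly superimposed, with a log2 fold change of 0.01 (SE 0.09, interval -0.17 to 0.19, exact permutation p = 0.874), or -0.01 without the library labelled 433. The second, 1415929_at, had a median of 831 in WT arrays (704 to 1051) and of 1022 in KO arrays (725 to 1225). Of all member probe sets it had the smallest unadjusted p, 0.107, with a log2 fold change of 0.22 (SE 0.13, and 0.24 without the library labelled 433), and the difference was 0.21 within the larger and 0.28 within the smaller of 2 array series that a number in the titles sets apart. The third, 1415930_a_at, had a median of 877 in WT arrays (808 to 1205) and of 775 in KO arrays (633 to 2256). A single library set the upper end in KO: without the library labelled 433 the log2 fold change moved from -0.09 (SE 0.22) to -0.28 (unadjusted p = 0.0311). The fourth, 1428024_at, stayed at signals under 15 in all 15 unmarked arrays and gave -0.04 (SE 0.08), or -0.03 without that library. The probe sets of Map1lc3b thus did not share a direction, and each of their intervals spanned 0.

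The GABARAP subfamily acts mainly at later steps of autophagosome formation. Gabarap, first found as a partner of the GABA-A receptor, had a single probe set, 1416937_at. Its signal ran from 268 through a median of 650.5 to 1153 in WT and from 218 through 590 to 1085 in KO arrays, a spread of several fold within both genotypes. The log2 fold change of -0.18 was smaller than its standard error of 0.31 (interval -0.84 to 0.48, exact permutation p = 0.625), and it was -0.17 without the library labelled 433.

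Gabarapl1 is the GABARAP paralogue with the TAAACA match above. Its brighter probe set 1416419_s_at had a median of 5380 in WT arrays (4532 to 8707) and of 6300 in KO arrays (4209 to 8587), with a log2 fold change of 0.10 (SE 0.17, interval -0.26 to 0.46, exact permutation p = 0.568). The other, 1416418_at, had a median of 1453 in WT arrays (920 to 1560) and of 1403 in KO arrays (664 to 1700), with -0.08 (SE 0.17). Both groups overlapped at both probe sets, and the lowest arrays at 1416418_at, WT 41 and KO MS15, lay apart from their groups. The log2 fold changes were 0.07 and -0.07 without the library labelled 433.

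Gabarapl2, or GATE-16, was first described in transport within the Golgi apparatus. Its 1441376_at signal had its median at 2652 in WT arrays (2319 to 4097) and at 2852 in KO arrays (2513 to 3391). WT 392 was the highest array and the remaining WT arrays lay within or below the KO range, with a log2 fold change of 0.06 (SE 0.12, interval -0.20 to 0.32, exact permutation p = 0.640). The probe set 1423187_at gave 0.02 (SE 0.14). These were 0.05 and 0.10 without the library labelled 433, which was the lowest array at the latter.

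Among the receptors, Sqstm1 encodes p62, which binds ubiquitin and polymerises into bodies that autophagy removes. Its 1450957_a_at signal ran from 470 through 620 to 713 in WT and from 519 through 635 to 811 in KO arrays, whose highest value was the library labelled 433. The log2 fold change was 0.04 (SE 0.13, interval -0.22 to 0.31, exact permutation p = 0.683), and -0.02 without that library. The dim 1444021_at gave -0.09 (SE 0.21), and -0.05 without it.

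Nbr1 encodes a ubiquitin-binding receptor of similar architecture that works with p62 at protein aggregates. Its 1448343_a_at signal had its median at 11151 in WT arrays (11013 to 14385) and at 11641 in KO arrays (6171 to 16046). The KO group held both the highest array, 384, and the lowest, the library labelled 433. The log2 fold change was -0.02 (SE 0.16, interval -0.37 to 0.32, exact permutation p = 0.907), and 0.11 without that library. The dim 1451897_a_at gave -0.17 (SE 0.21) with or without it.

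Tax1bp1 encodes a ubiquitin-binding receptor that also restrains NF-kB signalling. Its 1448399_at signal ran from 583 through 788 to 982 in WT and from 493 through 706 to 865 in KO arrays, with 2 KO arrays, 384 and MS15, at the low end. The log2 fold change was -0.22 (SE 0.15, interval -0.54 to 0.09, exact permutation p = 0.140), which read -0.30 in arrays of the larger series alone and 0.03 in those of the smaller. The other 3 probe sets gave -0.06 (1420174_s_at, SE 0.32), 0.18 (1420175_at, SE 0.31) and -0.07 (the dim 1442901_at, SE 0.21), so the estimates for this gene spread to both sides of 0. They were -0.19, 0.15 and -0.11 without the library labelled 433, and 1448399_at was then at -0.20.

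Calcoco1 encodes a receptor for parts of the endoplasmic reticulum and Golgi that was first known as a transcriptional coactivator. Its 1443121_at signal had its median at 216 in WT arrays (170.05 to 262) and at 182 in KO arrays (129 to 259). Its exact permutation p of 0.0766 was the smallest among the brightest probe sets of the 9 members, at a log2 fold change of -0.22 (SE 0.15, interval -0.53 to 0.09), or -0.28 and -0.05 in the larger and smaller series taken alone. The second probe set, 1428513_at, pointed the other way at 0.06 (SE 0.16). Leaving out the library labelled 433 gave -0.22 and 0.04.

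**Figure D2:**
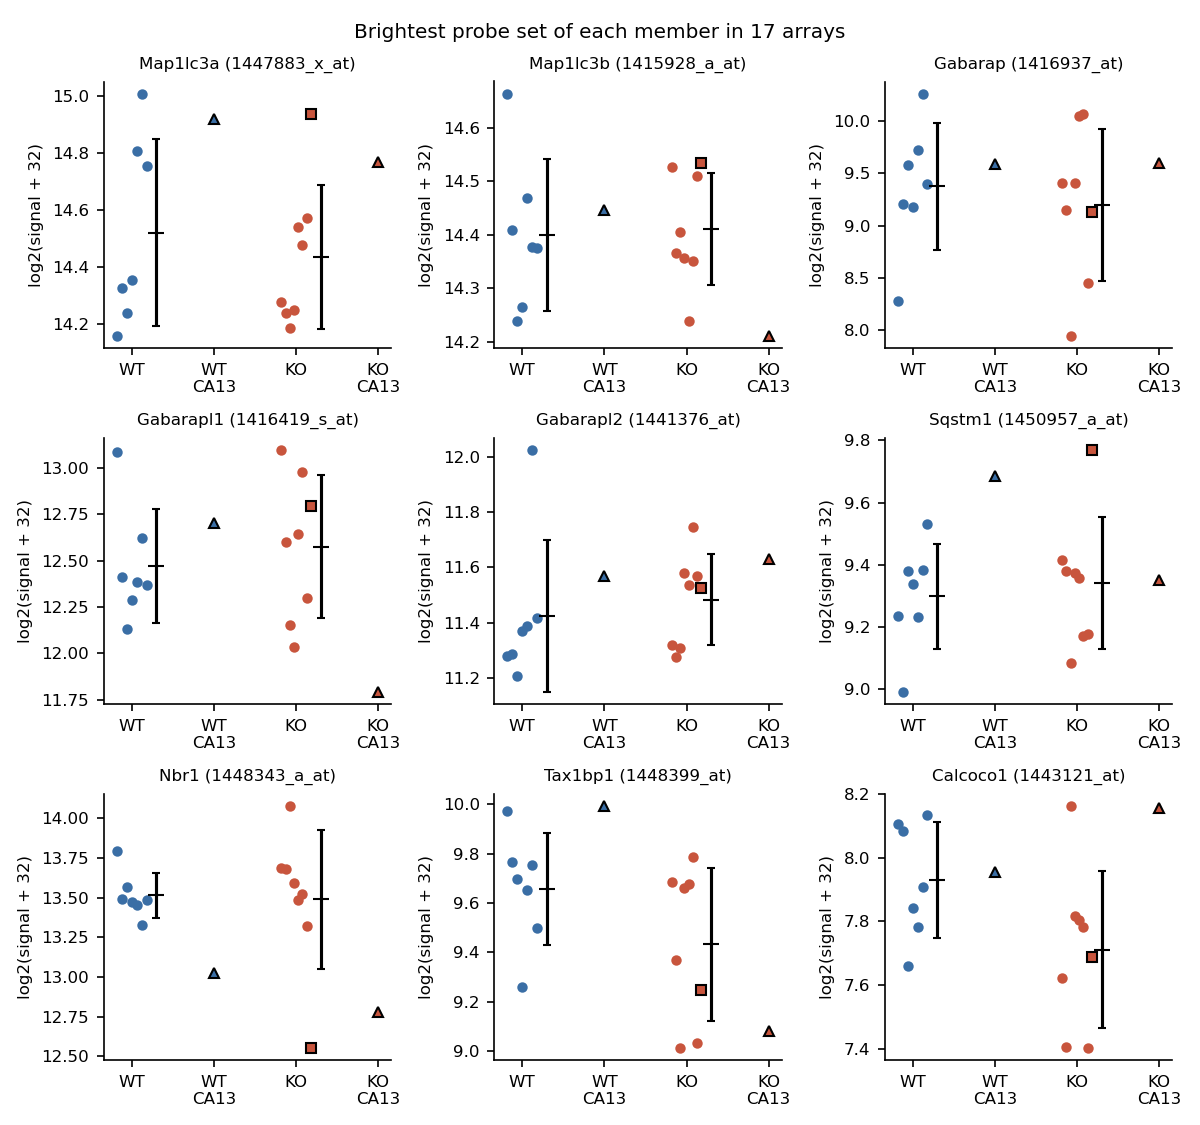
Normalised log2(signal + 32) of the brightest probe set of each member in 17 arrays, by group; circles are unmarked arrays, the square is the library labelled 433, triangles are the 2 CA13-marked arrays, and bars show mean and SD of the unmarked arrays. KO and WT overlap in every panel, and Nbr1 is lowest in the library labelled 433 and in both CA13-marked arrays.

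The remainder of the autophagy pathway was read from 7 lists of genes outside the members, with 75 of 80 genes measured through a probe set of their own symbol. None was called at an adjusted p under 0.05 (limma), and 4 had a higher and 0 a lower KO level at an unadjusted p under 0.05, 5.33% of the genes measured against 3.05% of all 18193 genes by the same count. The 4 were Wdr45b, a phosphoinositide-binding protein of the growing membrane (log2 fold change 0.36, SE 0.12), Pik3r4, the VPS15 subunit of the class III PI3 kinase (0.63, SE 0.24), the adaptor Tollip (0.23, SE 0.11) and Atg9b, a lipid scramblase (0.57, SE 0.20), whose WT level of 6.17 was below the median of all probe sets. The second Atg9b probe set gave -0.16. Each of these had an adjusted p of 1.00.

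By list, the ATG8 conjugation enzymes, which process and attach the ATG8 proteins, had 0 of 11 genes at an unadjusted p under 0.05 and a median log2 fold change of -0.01, with Atg5 at -0.20, Atg4c at 0.37 and Atg7 at 0.19 as the 3 of smallest p. The ULK kinase complex, which starts autophagosome formation, had 0 of 5 (Atg13 -0.27, Ulk1 0.10, Ulk2 -0.05). The class III PI3 kinase list had 1 of 8, Pik3r4, and next to it Ambra1 at 0.38 and Rubcn at -0.14. Phagophore expansion had 2 of 10, and beside them Wdr45 at -0.23. The list of other receptors had 1 of 18, Tollip, followed by Sec62 at 0.12 and Rtn3 at 0.06. Partners and regulators of the receptors had 0 of 13, with the mitophagy kinase Pink1 at -0.46 (SE 0.22, unadjusted p = 0.0513), Prkci at 0.25 and Map3k3 at -0.36. The fusion list, for the meeting of autophagosome and lysosome, had 0 of 10, with Vamp8 at -0.33, Snap29 at 0.21 and Rab7 at 0.18. Without the library labelled 433, 4 genes were higher and 3 lower at that unadjusted p, 9.33% of the genes measured against 3.55% of all genes in that fit. The 3 lower were Atg13 (-0.34), Pink1 (-0.51) and Map3k3 (-0.47). With that library included, the other probe sets of Map3k3 gave -0.01 to 0.05, those of Atg13 -0.39 to 0.06 and that of Pink1 -0.57. At least 1 further probe set also lay on the other side of 0 for Atg5, Atg7, Ulk1, Ulk2, Ambra1, Sec62, Rtn3, Prkci and Snap29. For Atg4c, Wdr45, Tollip and Rab7 the others kept the sign.

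The second comparison set the CA13-marked arrays against the unmarked arrays of their genotype, with 1 array on the marked side, so that the test concerns those libraries and takes its spread from the unmarked ones. The unmarked array of the same mark was among the latter, and the fit treated the 2 as independent. In WT, 0 of 21 member probe sets were called at an adjusted p under 0.05 (limma), with 0.113% of all probe sets called. At an unadjusted p under 0.05 there were 2, against 9.27% of all. These were Map1lc3b 1415930_a_at, higher in the CA13-marked array, and Calcoco1 1428513_at, lower.

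The signal at Map1lc3b 1415930_a_at was 2011 in the CA13-marked WT array, 808 in the unmarked array of the same mark 437 and at most 1205 in the 7 unmarked WT arrays. On the normalised log2 scale the CA13-marked array was at 11.03 and the unmarked WT arrays at 9.72 to 10.32, a difference of 1.12 (SE 0.45, unadjusted p = 0.0217, limma adjusted p = 0.412). The library labelled 433, whose markers resembled those of that array, was at 11.21, whereas the other KO arrays lay at 9.36 to 9.76 and the CA13-marked array of 433 at 9.99. Without the library labelled 433, which enlarges the spread of the KO group, the difference kept its size of 1.12 and the limma adjusted p was 0.0191, the only member of 21 called there, with 1.79% of all probe sets called. The other bright probe sets of Map1lc3b did not show it: 1415928_a_at was at 14.45 in the CA13-marked array within a WT range of 14.24 to 14.66, and 1415929_at was at 9.92 within 9.53 to 10.07.

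Calcoco1 1428513_at was at 6.82 in the CA13-marked WT array, below the WT range of 7.26 to 7.76 (difference -0.70, SE 0.33, unadjusted p = 0.0465, limma adjusted p = 0.527). The library labelled 433, at 7.71, lay within the other KO arrays, and the brighter Calcoco1 1443121_at, at 7.95, lay within the WT range. Tax1bp1 1420174_s_at was above the WT range in the CA13-marked WT array, at 10.87 against a maximum of 10.35 (difference 1.31, SE 0.65, limma adjusted p = 0.572). Both CA13-marked arrays belong to the larger of the array series, and the 2 WT arrays of the smaller series were low at this probe set. Against the 5 WT arrays of the larger series, a comparison added after the data were seen and made without a test, the difference was 0.88, and it was 0.95 with series as a block (SE 0.38, limma adjusted p = 0.365). The library labelled 433, at 10.36, was above the other KO arrays, which reached 10.01. Of the remaining Tax1bp1 probe sets, 1448399_at was just past the WT maximum (9.99 against 9.97), at a difference of 0.34, or 0.36 against the larger series alone. The difference at 1420175_at was 0.46 from all WT arrays but 0.05 from those of the larger series, and -0.16 from the unmarked array of 437, and at the dim 1442901_at it was 0.48 and 0.30. Sqstm1 1450957_a_at was above its group in the same 2 libraries, at 9.68 in the CA13-marked WT array (WT maximum 9.53) and at 9.77 in the library labelled 433 (maximum of the other KO arrays 9.41), with a difference in WT of 0.39 (SE 0.26). The dim 1444021_at did not show it. Its difference in WT was -0.36, and -0.62 from the unmarked array of 437. Both libraries lay within their groups there, at 6.34 and 6.32.

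Nbr1 1448343_a_at was low in 3 libraries. Its signal was 8741 in the CA13-marked WT array, 6727 in the CA13-marked KO array and 6171 in the library labelled 433, and 10369 to 16046 in the other 14 unmarked arrays. The first difference was -0.49 (SE 0.34, limma adjusted p = 0.736). The dim Nbr1 1451897_a_at did not follow. It was higher in both CA13-marked arrays (differences 0.45 in WT and 1.59 in KO), and the library labelled 433 lay within the other KO arrays. Both arrays of mark 433 were low at 1448343_a_at, whichever markers they carried. The CA13-marked KO array had granule marker levels like those of the unmarked arrays. Against all 8 unmarked KO arrays its difference was -0.71 (SE 0.34, limma adjusted p = 0.980), and against those other than the library labelled 433 it was -0.84 (SE 0.22, unadjusted p = 0.00165, limma adjusted p = 0.363).

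**Figure D3:**
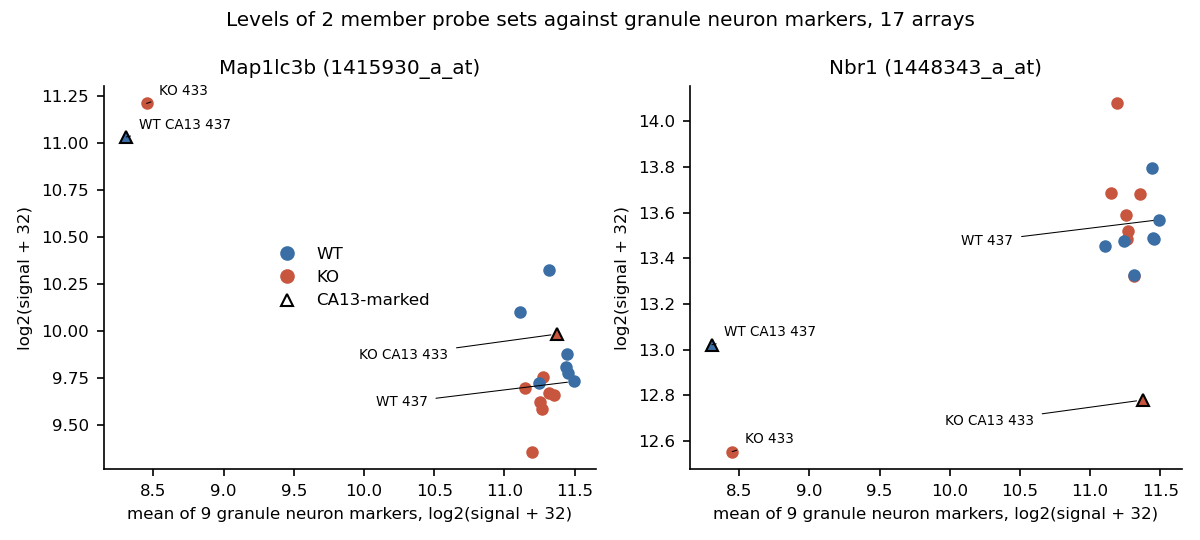
Level of Map1lc3b 1415930_a_at (left) and Nbr1 1448343_a_at (right) as log2(signal + 32) against the mean log2 level of 9 granule neuron markers, for 17 arrays; triangles are CA13-marked arrays and the arrays of marks 433 and 437 are named. The left panel shows the Map1lc3b probe set with the largest difference in pair 437. It is high in the 2 arrays with granule marker means of 8.31 and 8.45. Nbr1 1448343_a_at is low in these 2 and in the CA13-marked array of 433. The other bright Map1lc3b probe sets lay within the WT range in the CA13-marked WT array, and the dim Nbr1 1451897_a_at was not low.

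In KO, 0 of 21 member probe sets were called at an adjusted p under 0.05 (limma), with 0.0466% of all called, and 4 had an unadjusted p under 0.05, against 4.92% of all. Map1lc3b 1415929_at was lower in the CA13-marked array, at 9.20 against a minimum of 9.58 in the unmarked KO arrays other than the library labelled 433 (-0.80 from all 8, SE 0.27, limma adjusted p = 0.786). Gabarapl1 1416419_s_at was also lower (11.79, difference -0.78, SE 0.35, limma adjusted p = 0.980), as was Nbr1 1448343_a_at. The dim Nbr1 1451897_a_at was higher, at a signal of 137 against at most 46.5 in the unmarked KO arrays (difference 1.59, SE 0.44). In the WT comparison Map1lc3b 1415929_at (0.14) and Gabarapl1 1416419_s_at (0.23) went the other way. Both Nbr1 probe sets kept their direction there, at -0.49 and 0.45. The other bright Map1lc3b probe sets in KO differed by -0.20 (1415928_a_at) and 0.16 (1415930_a_at). Without the library labelled 433, 0 were again called at an adjusted p under 0.05, with 0.0577% of all called, and 3 had an unadjusted p under 0.05, against 6.4% of all.

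Read by range, 7 of the 21 member probe sets lay outside the WT arrays in the CA13-marked WT array, against 30.7% of all probe sets. In the library labelled 433, 8 lay outside the other KO arrays, against 35.3% of all, and 8 did in the CA13-marked KO array, against 29.3% of all. These shares of the members were near or somewhat above those of all probe sets, and no test was made of the gap.

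Each CA13-marked array has an unmarked partner of the same mark. In the WT pair 437, 6 member probe sets differed by more than 1.5-fold, against 32.4% of all probe sets, and in the KO pair 433, 7 did, against 30.6% of all. The pairs moved in opposite directions at 14 of the 21, against 61.3% of all probe sets. They did so past 1.5-fold on both sides at 2, against 11.5% of all probe sets. These were Map1lc3b 1415930_a_at, with a log2 difference, CA13-marked minus unmarked, of 1.30 in pair 437 and -1.22 in pair 433, and Tax1bp1 1420174_s_at, with 0.71 and -0.73. At the dim Nbr1 1451897_a_at both pairs moved up, by 1.06 and 1.58. With 1 array on each side the pairs carry no test.

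**Figure D4:**
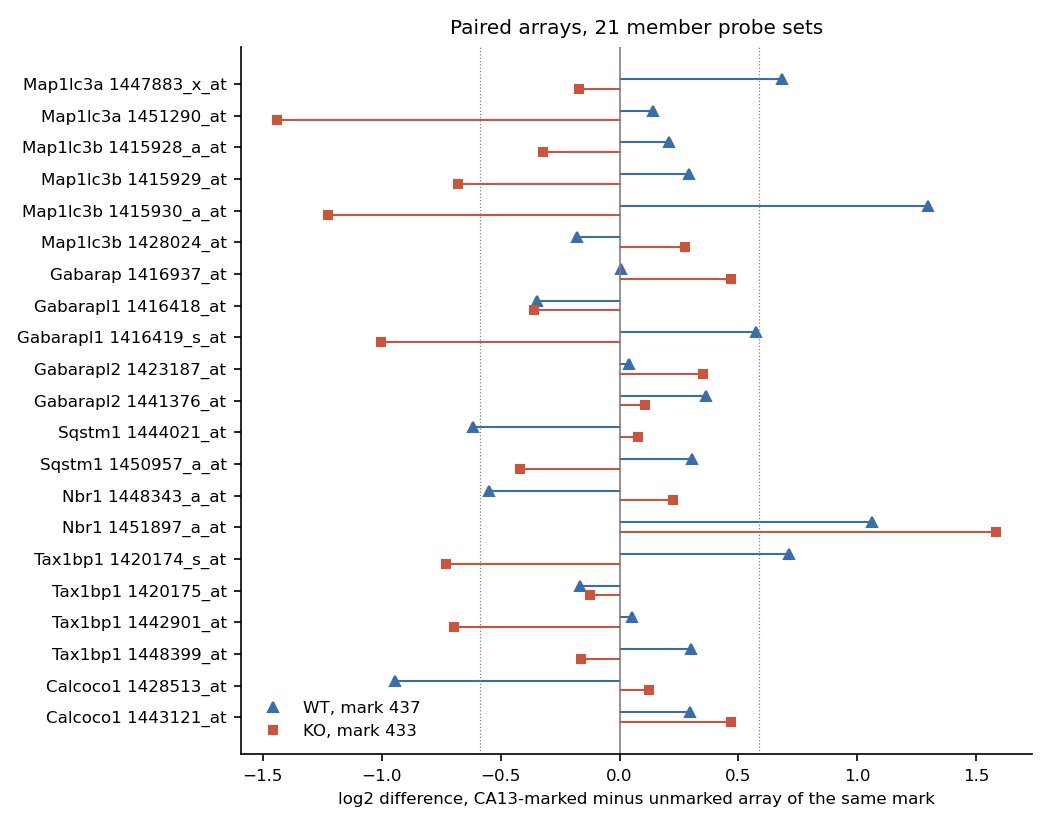
Log2 difference, CA13-marked minus unmarked array of the same mark, for the 21 member probe sets in the WT pair 437 (triangles) and the KO pair 433 (squares); dotted lines mark a 1.5-fold difference. Map1lc3b 1415930_a_at and Tax1bp1 1420174_s_at pass the lines in opposite directions.

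The labels place 4 unmarked arrays, KO 390 and 391 and WT 392 and 393, in a smaller array series and the other 11 in a larger one, by a number in the titles whose meaning is not explained. With genotype in the fit, a test chosen after the data were seen called 3 of the 21 member probe sets between these series, where 9.82% of all probe sets were called (limma adjusted p under 0.05). Gabarap 1416937_at had signals of 823, 1059, 1085 and 1153 in the smaller series and of 218 to 725 in the larger one. No array of one series reached the other, and the log2 difference was 1.01 (SE 0.26, limma adjusted p = 0.0234), 0.86 within WT and 1.15 within KO arrays. Tax1bp1 1420174_s_at moved down, with 638 to 1271 in the larger series and 300, 360, 365 and 458 in the smaller one (log2 difference -1.24, SE 0.21, limma adjusted p = 0.00192), and so did 1420175_at (-1.16, SE 0.22, limma adjusted p = 0.00449). The brightest Tax1bp1 probe set, 1448399_at, did not follow, at 0.24 (SE 0.16, limma adjusted p = 0.408). In KO and in WT alike, the highest Gabarap arrays and the lowest arrays at these 2 Tax1bp1 probe sets were those of the smaller series.

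The Gapdh 3′ to 5′ probe set log2 ratio, a sign of how far transcripts were copied toward their 5′ end, was 5.11 to 5.37 in the smaller series and 5.04 to 6.41 in the larger one. With that ratio as a covariate, only Tax1bp1 1420174_s_at stayed called, while Gabarap was at 1.12 (limma adjusted p = 0.0636) and 1420175_at at -0.88 (limma adjusted p = 0.0534). The calls over all probe sets fell as well, from 4422 to 1509. Gabarap also lost the call when KO 390, KO 391 or WT 392 was left out, at differences of 0.95 to 0.97 (limma adjusted p 0.0601 to 0.101). Over all probe sets 1919, 4026 and 1544 were called in these fits. Without the library labelled 433, Map1lc3a 1447883_x_at was called as well (0.36, limma adjusted p = 0.0474), with 12.1% of all probe sets called.

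**Figure D5:**
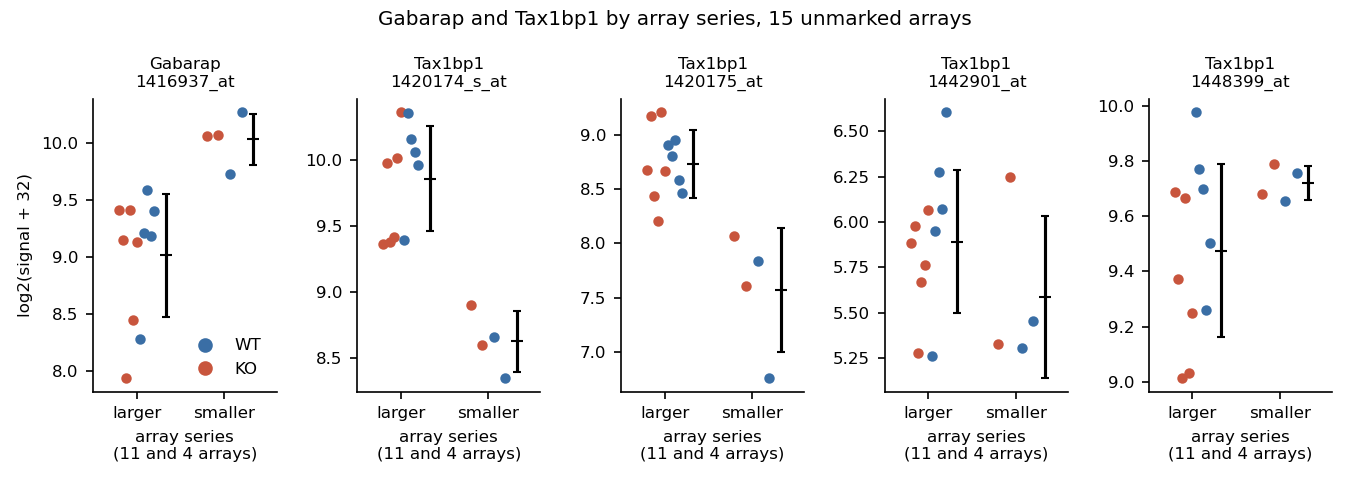
Log2(signal + 32) of Gabarap and the 4 Tax1bp1 probe sets in the 15 unmarked arrays, divided by array series (11 arrays in the larger and 4 in the smaller); colours give genotype and bars the mean and SD. Gabarap is higher and 1420174_s_at and 1420175_at are lower in the smaller series in both genotypes, and 1448399_at and 1442901_at overlap.

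For each member the gene with the most similar profile was taken as the highest Pearson r between brightest probe sets over the 15 unmarked arrays, among 11472 genes above the median level. These were Slc44a2 for Map1lc3a (r = 0.909), Sel1l for Map1lc3b (0.873), Nifk for Gabarap (0.932), Eif3b for Gabarapl1 (0.897) and Cyp46a1 for Gabarapl2 (0.935). For the receptors they were Fam71d for Sqstm1 (0.851), Bod1l for Nbr1 (0.931), Mrps22 for Tax1bp1 (0.887) and Cys1 for Calcoco1 (0.802). The arrays share their genotype groups and array series. Each r is the highest of 11472 over only 15 arrays, a pick that gives high values by chance too, and none was tested. Without the library labelled 433 the r was 0.791 for Nbr1 and Bod1l and 0.788 for Sqstm1 and Fam71d. For the other pairs it was 0.825 to 0.940.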

How the data were processed

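The authors deposited MAS5 intensity values of Affymetrix probe sets, per the submitters' processing notes, with a 2% trimmed mean of 500 in each array, whereas the study's methods name RMA and SAM. Median signals per array were 88.1 to 123, and the number of arrays limits the precision. After removal of 64 control probe sets, signals were taken as log2(signal + 32), then quantile normalised and fitted with limma 3.58.1 (lmFit and eBayes with an intensity trend, R 4.3.3), with Benjamini-Hochberg adjustment over all 45037 probe sets. KO and WT were compared over the 15 unmarked arrays, and CA13-marked arrays in a fit of 4 groups over 17 arrays. Brightest probe sets were also tested by a two-sided exact permutation of means. A fold change on this scale understates the change of dim probe sets. Probe sets were named by the platform annotation (34945 carried 1 symbol, 932 several, 9160 none), whose genome build was not given in the sources used here. Promoters and gene starts came from RefSeq GRCm38.p6. All member probe sets were named, with the 3 genes of smallest unadjusted p per autophagy list and the most similar gene per member. The members and lists were chosen with earlier results of these data known. The fit was also run on simulated data with known changes, whose outcome is not given here. These were drawn independently for each probe set without array series, so they do not speak to such shifts. Alternatives were the pseudocount, normalisation, a filter on dim probe sets, the trend, array weights, array series, RNA quality, SAM, a t-test and leaving out each array.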

Additional observations from a re-analysis of the deposited data

Results flagged for a closer look

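Of 42 groups of member probe set levels examined (21 probe sets in KO and in WT), 5 held an array that stood apart from the rest by Dixon's test at the 95% level, which chance gives in about 1 in 20 groups, or 2.1 here. Map1lc3b 1415930_a_at was highest in the KO array labelled 433, at 11.22 on the log2 scale against 9.76 in the next KO array. Gabarapl1 1416418_at was lowest in WT 41, at 9.93 against 10.43 in the next, and in KO MS15, at 9.45 against 10.34. Gabarapl2 1441376_at was highest in WT 392, at 12.03 against 11.42, and the dim Nbr1 1451897_a_at was also highest in WT 392, at 6.87 against 5.84.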

How the results depend on the processing

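Between KO and WT the count of member probe sets called was 0 in every alternative run, including SAM and the methods' t-test with and without adjustment. Over all probe sets, the adjusted and SAM runs called only 0 to 8, so a count of 0 among 21 members says little there. The t-test without adjustment called 1509 of 45037. Over the 541 alternative values of the 21 probe sets 58 changed sign, none of them called (lowest adjusted p 0.99), with 3 probe sets that never did. No paired analysis was possible because KO and WT arrays share no mark. In the CA13 comparison of WT the count was 0 to 1 when single arrays were left out, 1 without the library labelled 433, 1 without it and with array series as a block (chosen after the data were seen) and 2 at an unadjusted p under 0.05; in KO it was 4 at an unadjusted p. The counts over all probe sets moved more. For WT they were 51, with 113 at a pseudocount of 1, 14 with the filter on dim probe sets, 26 without the trend, 450 with array weights, 358 from WT arrays alone, 808 without the library labelled 433 and 1242 with the series block as well. For KO they were 21, with 41 at a larger pseudocount, 54 without quantile normalisation, 0 with the filter, 11 without the trend, 55 with array weights and 1 from KO arrays alone. Between array series the member count was 3, 2 to 4 when single arrays were left out and 1 with RNA quality as a covariate, and over all probe sets 4422, 1509 with that covariate, 1919 without KO 390 and 1544 without WT 392. Genes of the autophagy lists at an unadjusted p under 0.05 numbered 4 of 75 (5.33%, against 3.05% of all genes). Without the library labelled 433 they numbered 7 (9.33% against 3.55%). When every probe set of the lists was counted instead of 1 per gene, 5 probe sets were under that p. That share was below the 3.22% of all probe sets, so the excess counted by gene was not seen by probe set. The cause of these shifts was not tested.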
